A study of Mus musculus with 21 samples.

Results

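Among the hearts of nanoplastics mice, 3 of the 11 libraries used were rich in atrial muscle transcripts and 8 were poor in them, out of 21 libraries in the series. The division rests on measured values: a library is rich when Myl7, Myl4 and Sln together exceed 1000 CPM, a gene's counts as a share of the library's total on the usual fixed scale, and poor otherwise. The nanoplastics mice were adult wild-type males that received polystyrene nanoplastics for 8 weeks, and the controls, of the same sex and genotype, received distilled water. Each of the 4 nanoplastics and 3 control hearts was cut into 3 sections, labelled atrial, right ventricular and left ventricular, and each section gave a bulk polyA RNA library. No transgene or engineered allele is named in the labels, and none of the libraries is labelled as a pool of animals. The right ventricular library of nanoplastics mouse 2 was left out: it held 4662 counts, where a gene with no count can lie anywhere up to 643.5 CPM (3 counts).

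The rich libraries were the atrial section of nanoplastics mouse 1 at 38990 CPM of the 3 genes, the atrial section of mouse 4 at 2969 CPM and the left ventricular section of mouse 4 at 1605 CPM. The last of these lay just inside the threshold, and the poor library nearest to it was the right ventricular section of mouse 4 at 100.4 CPM. The atrial section of mouse 2 followed at 66.6 CPM, and the other 6 poor libraries held 4.92 to 13.4 CPM. The poor class therefore includes the atrial-labelled libraries of mice 2 and 3, and the rich class includes a library labelled left ventricular. All 3 rich libraries come from 2 mice, so their spread is partly within 1 animal. The levels of the 3 genes chose the libraries and are given as a description.

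**Figure D1:**
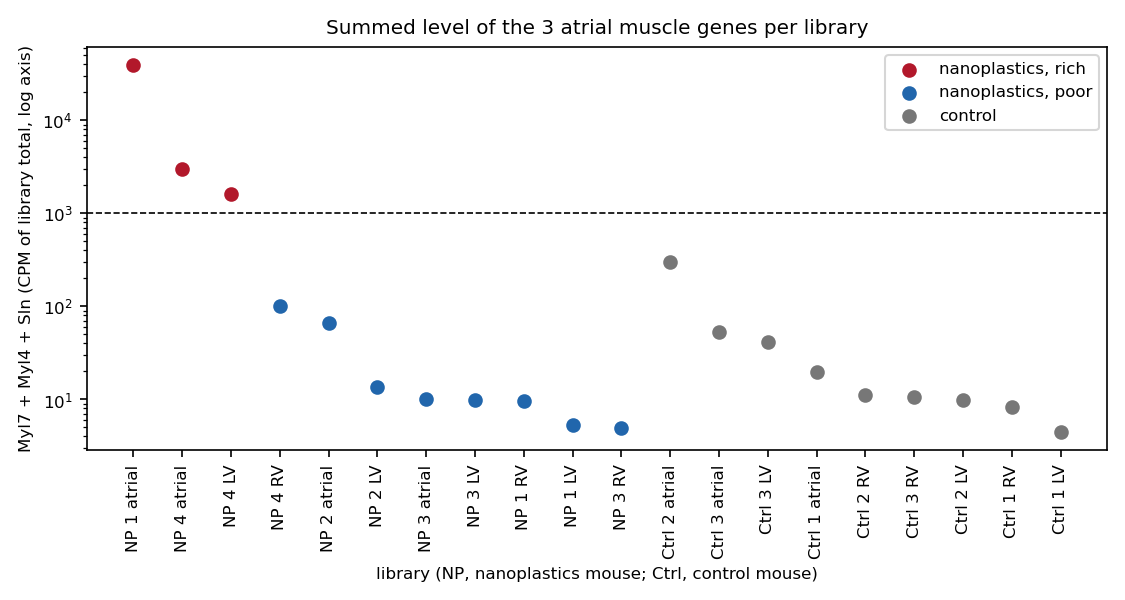
Summed CPM of Myl7, Myl4 and Sln in each library on a log axis, with the rich nanoplastics libraries first, then the poor ones, then the controls, each point 1 library. The dashed line is the threshold of 1000 CPM, and the only points above it are at 38990, 2969 and 1605 CPM.

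Atrial and ventricular heart muscle use different sets of contractile and signalling proteins. Myl7 and Myl4 are the regulatory and essential myosin light chains of atrial muscle, and Sln encodes sarcolipin, a small inhibitor of the sarcoplasmic reticulum calcium pump that mouse atria hold and mouse ventricles largely lack. Atrial muscle cells are also endocrine cells that store the natriuretic peptide made from Nppa in granules. In bulk RNA, more cells of a type and more RNA per cell cannot be told apart.

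The 3 genes did not keep a single ratio in the rich libraries. Myl7 counts were 11924, 3177 and 722, Myl4 counts 3474, 695 and 213, and Sln counts 17423, 2886 and 549 in the mouse 1 atrial, mouse 4 atrial and mouse 4 left ventricular library. There were 1.46 Sln counts for each Myl7 count in the mouse 1 atrial library, against 0.908 in the mouse 4 atrial and 0.760 in the mouse 4 left ventricular library. Myl4 was closer to a fixed ratio, at 0.291, 0.219 and 0.295 for each Myl7 count in the same order.

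The 3 rich libraries held 841786, 2275813 and 924621 counts, the poor ones 438053 to 1689813 and the controls 413436 to 2439314. Mitochondrially encoded genes took 15.6%, 27.0% and 24.0% of counts in the rich libraries and 25.4% to 32.1% in the poor ones. The annotated transcript length at the median count, with mitochondrial genes set aside, was 1318 nt in the mouse 1 atrial, 1563 nt in the mouse 4 atrial and 1499 nt in the mouse 4 left ventricular library, against 1473 to 1598 nt in the poor libraries and 1633 to 1796 nt in the controls. The mouse 1 atrial library was thus the lowest of the 20 in both measures, and the part of these measures in the results below was not tested.

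Promoter sequence is shown for Myl7, one of the genes that chose the libraries, for Mybphl and Hamp, whose levels had the same order in the rich libraries, and for Nppa, whose levels did not. Each line gives the 250 bases before the RefSeq start on build GRCm38.p6, 5' to 3' on the gene's strand. Myl7 lies at chr11:5898783-5899032 on the minus strand, Mybphl at chr3:108364661-108364910 on the plus strand, Hamp at chr7:30944030-30944279 on the minus strand and Nppa at chr4:148000472-148000721 on the plus strand. Capitals mark matches on either strand to the GATA factor motif AGATAA, the T-box motif GGTGTGA, the NKX2-5 motif CAAGTG and the TATA box motif TATAAA.
Myl7: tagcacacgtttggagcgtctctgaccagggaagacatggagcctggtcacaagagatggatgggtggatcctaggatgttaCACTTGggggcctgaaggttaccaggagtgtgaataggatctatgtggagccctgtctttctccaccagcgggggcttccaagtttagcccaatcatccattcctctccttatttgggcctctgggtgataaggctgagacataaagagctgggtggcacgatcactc
Mybphl: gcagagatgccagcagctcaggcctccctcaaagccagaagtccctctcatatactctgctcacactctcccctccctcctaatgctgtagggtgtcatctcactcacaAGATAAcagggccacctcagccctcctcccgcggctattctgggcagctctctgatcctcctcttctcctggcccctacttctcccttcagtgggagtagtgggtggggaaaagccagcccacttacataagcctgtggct
Hamp: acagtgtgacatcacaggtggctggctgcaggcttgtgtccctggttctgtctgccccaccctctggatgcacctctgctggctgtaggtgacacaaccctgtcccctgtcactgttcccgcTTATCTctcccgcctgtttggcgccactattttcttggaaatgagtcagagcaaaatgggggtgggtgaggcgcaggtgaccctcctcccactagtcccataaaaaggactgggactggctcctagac
Nppa: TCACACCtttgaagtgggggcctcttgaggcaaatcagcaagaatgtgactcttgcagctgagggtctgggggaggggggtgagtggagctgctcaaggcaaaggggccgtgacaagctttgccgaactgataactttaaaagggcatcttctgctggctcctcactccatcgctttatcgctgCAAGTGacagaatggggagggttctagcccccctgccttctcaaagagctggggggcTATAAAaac
No marked match in these 4 sequences overlaps another. Myl7 holds CAAGTG on the opposite strand, Mybphl and Hamp each hold AGATAA, on the opposite strand in Hamp, and Nppa holds GGTGTGA on the opposite strand, CAAGTG and TATAAA. Over all 32851 RefSeq promoter windows of the same length, 9.99% hold AGATAA, 3.33% GGTGTGA, 11.6% CAAGTG and 12.4% TATAAA. No motif is shared by all 4 windows, and matches are a description of letters.

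Few genes separated the rich from the poor libraries. Levels below are CPM after TMM scaling, which edgeR uses to adjust for library composition. A gene was counted as higher when its lowest rich level lay above its highest poor level and the mean of log2(CPM + 1) differed by at least 1, among genes with a mean of at least 10 counts. Of 4788 genes, 11 were higher (0.23%), and 3 of these are the genes of the rule. The other 8 included Mybphl, Fgf12, Pum3, Sh3bgrl3, Glmp, Ift27 and Acot7. No gene was lower by the mirrored rule (0%). With no minimum size, 42 genes lay above (0.877%) and 19 below (0.397%) without overlap. These counts carry no test, since the libraries were chosen on their values. Without the mouse 1 atrial library, 10 genes were higher, 7 of them among the 11, and 1 was lower, and Mybphl and Fgf12 then had too few counts to pass the minimum. Without the mouse 4 left ventricular library, 17 were higher, all 11 among them, and 10 were lower. Without the mouse 4 atrial library, 14 were higher and 17 lower, and without the poor right ventricular library of mouse 4, 15 were higher and 1 lower.

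Mybphl encodes a myosin-binding protein of the sarcomere, related to the cardiac myosin-binding protein and known in atrial muscle. It was at 169 CPM in the mouse 1 atrial, 20.2 CPM in the mouse 4 atrial and 12.4 CPM in the mouse 4 left ventricular library, from 142, 43 and 11 counts. Among the 8 poor libraries, 6 had no count and the highest level was 2.17 CPM. The groups did not overlap, and the mouse 1 library stood far above the mouse 4 ones. The difference of rich minus poor means was 4.87 on the log2(CPM + 1) scale, which understates changes of low genes.

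Fgf12 encodes an intracellular member of the fibroblast growth factor family that binds voltage-gated sodium channels. Its levels were 134, 13.1 and 10.2 CPM in the rich libraries in the same order, from 112, 28 and 9 counts. In the poor libraries the highest level was 2.17 CPM, and 5 of 8 had no count. The 2 mouse 4 libraries were close to each other and above each poor library, with a log2 difference over all of 4.30.

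Hamp encodes hepcidin, the peptide hormone that controls iron export, best known from liver. It fell short of the minimum of mean counts, with a mean of 8.82. Its levels were 66.8, 15.003 and 9.04 CPM in the rich libraries, from 56, 32 and 8 counts. The 8 poor libraries together held 1 count of Hamp, and the 9 control libraries also held 1. The rich libraries thus lay apart from all 17 others for this gene.

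The remaining 6 genes counted as higher were also present in the poor libraries at moderate levels. Pum3, an RNA-binding protein of the Pumilio family, was at 253, 84.9 and 45.2 CPM in the rich libraries, against 15.2 to 39.5 CPM (median 25.9) in the poor ones. The mouse 1 library was well above the mouse 4 libraries, and these in turn lay above the highest poor library. Acot7, an acyl-CoA thioesterase, was at 90.7, 54.9 and 50.8 CPM in the rich libraries and at 21.5 to 36.7 CPM in the poor ones. Sh3bgrl3, a small thioredoxin-like protein, was at 65.7, 48.8 and 53.1 CPM in the rich and 12.2 to 41.7 CPM in the poor libraries.

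Glmp and Ift27 had the narrowest gaps. Glmp, a lysosomal membrane protein, was at 21.5, 20.2 and 18.1 CPM in the rich libraries, against a highest poor level of 17.5 CPM. Ift27, a small GTPase of intraflagellar transport, was at 26.3, 11.7 and 18.1 CPM, against a highest poor level of 11.1 CPM. The highest poor level was in the left ventricular library of mouse 2 for Glmp and the atrial library of mouse 3 for Ift27. There 1 count was worth 0.961 and 1.13 CPM of the library total. Each gap is smaller than this, so the separation of these 2 genes is within counting error. For Pum3 and Sh3bgrl3, the highest poor library was the right ventricular section of mouse 4, with 18 and 19 counts. Their gaps were also smaller than the counting error of so few counts. Among the 11 genes, 9 were ordered like the 3 rule genes within the rich libraries, and Ift27 and Sh3bgrl3 were not.

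**Figure D2:**
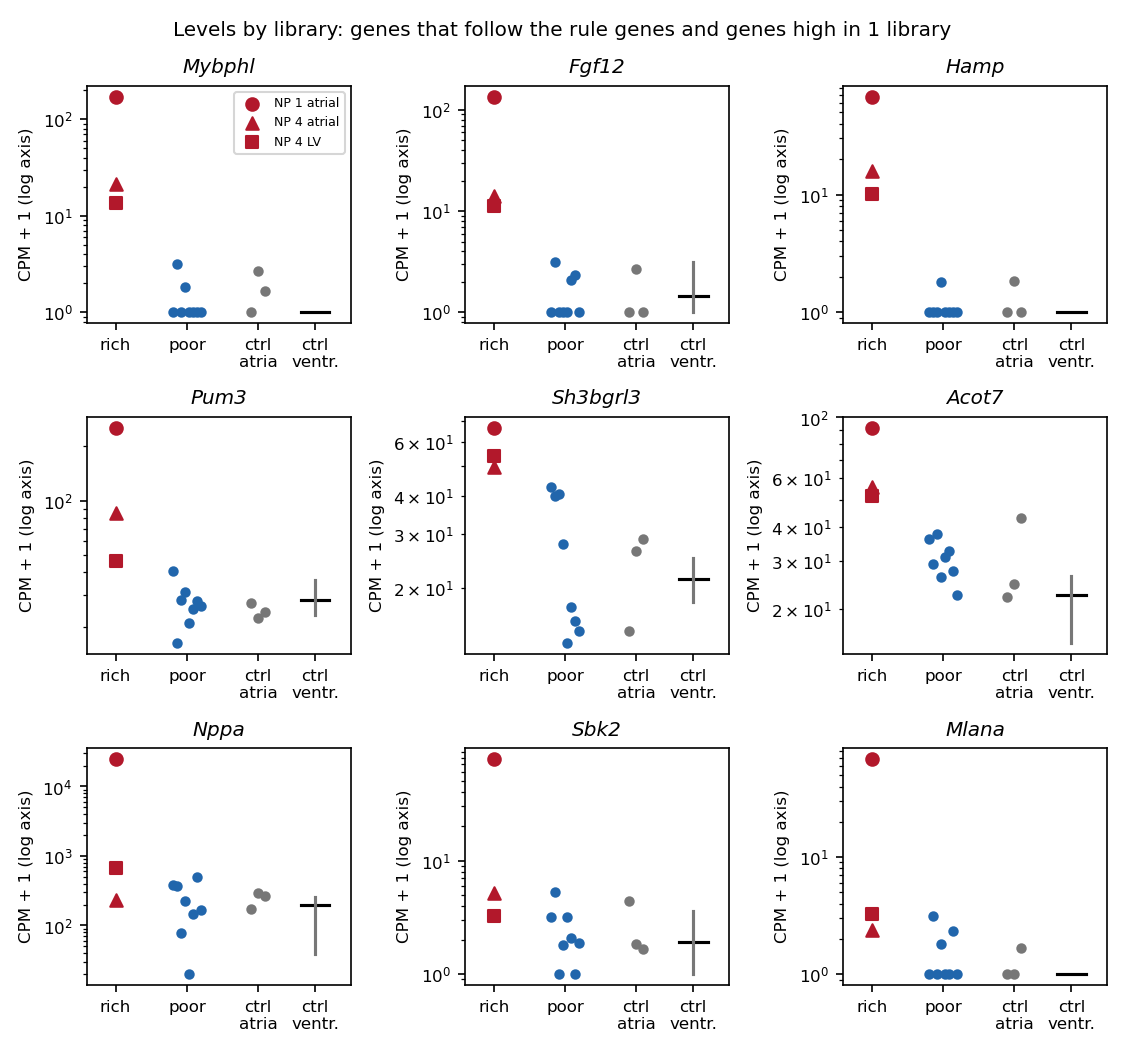
TMM-scaled CPM + 1 on log axes for 9 genes, with rich libraries as red symbols, the 8 poor libraries in blue, the 3 control atrial sections in grey, and the 6 control ventricular sections as a median with a line over their range. Mybphl, Fgf12 and Hamp separate all 3 rich libraries from the rest, Sbk2 and Mlana stand out in the mouse 1 atrial section alone, and Nppa is at 672 CPM in the mouse 4 left ventricular section but inside the poor range in the mouse 4 atrial section.

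A further view was within mice. In mouse 1, 137 of 4788 genes (2.86%) were at least 2-fold higher, on CPM + 1, in the atrial section than in both ventricular sections. In mouse 4, 244 genes (5.10%) were at least 2-fold higher in the atrial and left ventricular sections than in the right ventricular section, whose library had 438053 counts. Both conditions held for 9 genes (0.188%): the 3 rule genes, Mybphl, Fgf12, Csrp2, Egfl7, Hdac1 and Id2. Sets of these sizes can share some genes by coincidence, so the 9 are a description and no support. Pum3, Acot7 and the rest of the 8 genes thus did not reach 2-fold in both mice. By the mirrored conditions, 165 genes (3.45%) were lower in mouse 1 and 24 (0.501%) in mouse 4, and none in both. With so few genes lower in mouse 4, an absence in both tells little.

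Most other genes known from atrial muscle that had enough counts did not separate the classes. Of 20 such genes outside the rule, 19 were in the table and 8 passed the minimum of mean counts. Of these 8, 1, Mybphl, was higher in the rich libraries, against 0.23% of all 4788 genes. The median log2 difference of the 8 was 0.83, against 0.01 over all 4788 genes. Neither the 1 of 8 nor the median is support, because a gene can pass the minimum through a rich library alone. The 11 genes below the minimum were not counted, among them Hamp, whose rich levels all lay above the poor ones.

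Nppa, the precursor of atrial natriuretic peptide, was at 25015 CPM in the mouse 1 atrial library, but at 232 CPM in the mouse 4 atrial and 672 CPM in the mouse 4 left ventricular library. The poor libraries spanned 18.9 to 503 CPM (median 192), so the mouse 4 atrial library lay inside their range and the mouse 4 left ventricular library above it. Nppa counts were 1.76 for each Myl7 count in the mouse 1 atrial, 0.156 in the mouse 4 atrial and 0.824 in the mouse 4 left ventricular library. The order of the mouse 4 libraries for Nppa was the reverse of their order for Myl7. Nppb, which encodes the related B-type peptide, was at 917, 237 and 544 CPM in the rich libraries, against 120 to 821 CPM in the poor ones, and overlapped them.

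Sbk2 and Sbk3 encode kinases of a small family expressed in heart. Sbk2 was at 77.6, 4.22 and 2.26 CPM in the rich libraries and at most 4.33 CPM in the poor ones. Sbk3 was at 20.3 CPM in the mouse 1 atrial library, from 17 counts, with 1 count in the mouse 4 atrial library and none in the mouse 4 left ventricular library. Both genes were therefore high in the mouse 1 atrial library alone. Dkk3, a secreted glycoprotein, was at 31.0, 2.81 and 4.52 CPM, against 0 to 15.5 CPM in the poor libraries. Pam, the enzyme that amidates peptide hormones, was at 261, 114 and 70.0 CPM, against 72.1 to 105 CPM in the poor libraries, and Stard10, a phospholipid transfer protein, was at 91.9, 12.7 and 13.6 CPM, against 2.20 to 26.4 CPM.

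Genes for atrial ion channels and transcription factors gave no separation. Kcnj3 and Kcnj5, the subunits of the acetylcholine-gated potassium channel, were at 26.3, 26.7 and 21.5 CPM and at 13.1, 15.9 and 14.7 CPM in the rich libraries. The poor libraries reached 25.1 CPM for Kcnj3 and 15.5 CPM for Kcnj5, so both overlapped, with all 3 rich levels in the upper part of the range. Kcnk3, a two-pore-domain potassium channel, was at 16.7, 32.8 and 20.3 CPM, against 16.3 to 46.1 CPM in the poor libraries. Clu, the chaperone clusterin, was at 713, 369 and 438 CPM, against 203 to 470 CPM. Kcna5, Gja5, Nr2f1, Nr2f2, Tbx5, Hey1 and Bmp10 had at most 10.7 CPM in any rich library, and Bmp10 had no count in them.

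Ventricular muscle transcripts were abundant in the rich libraries. Myl2, the ventricular regulatory light chain, was at 8674 CPM in the mouse 1 atrial, 11589 CPM in the mouse 4 atrial and 14280 CPM in the mouse 4 left ventricular library, against 9582 to 14429 CPM in the poor libraries. Myl3, the ventricular essential light chain, was at 5071, 7097 and 7422 CPM, against 6074 to 9942 CPM. In both genes only the mouse 1 atrial library lay below the poor range. Of the 6 ventricular genes that passed the minimum of mean counts, none separated the classes, against 0.877% above and 0.397% below over all 4788 genes. The ventricular list summed to 14012, 19044 and 22103 CPM in the rich libraries and to 19025 to 21245 CPM in the poor ones.

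Muscle genes shared by both chambers also gave no separation. Of 22 sarcomere genes, 17 calcium handling genes and 12 channel genes that passed the minimum, none lay wholly above or below. Over all 4788 genes only 0.877% lay above and 0.397% below, so an absence in lists of this size is near the background. Some were lower in the mouse 1 atrial library than in any poor one. Ttn, the giant spring protein titin, was at 772 CPM there and at 2334 and 2113 CPM in the mouse 4 rich libraries, against 1187 to 2519 CPM in the poor libraries. Ryr2, the calcium release channel, was at 97.9, 253 and 190 CPM, against 125 to 299 CPM.

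Cryab and Actc1 had levels that went with the mouse more than with the class. Cryab, a small heat shock protein, was at 3285, 3620 and 3503 CPM in the rich libraries. It was similarly high in the poor libraries of the same mice, at 3749 and 3158 CPM in the ventricular sections of mouse 1 and 2717 CPM in the right ventricular section of mouse 4. The 5 libraries of mice 2 and 3 were at 863 to 1239 CPM, below each of these. Actc1, the cardiac actin, was at 8758, 12199 and 12198 CPM in the rich libraries, at 12207, 12210 and 9283 CPM in the poor libraries of mice 1 and 4, and at 4481 to 5982 CPM in mice 2 and 3. Both genes overlapped between rich and poor libraries for that reason.

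**Figure D3:**
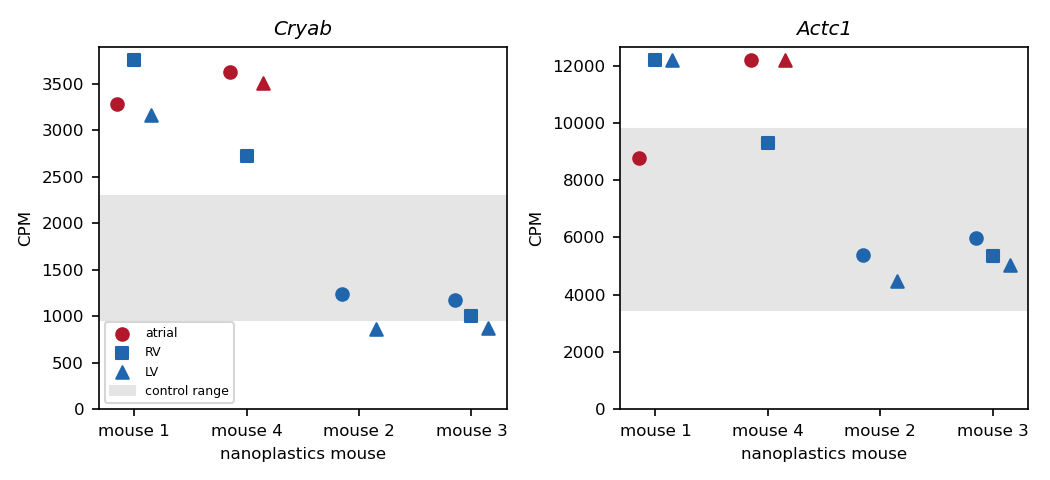
TMM-scaled CPM of Cryab and Actc1 in each nanoplastics library by mouse, with rich libraries in red, poor ones in blue, sections by symbol and the range of the 9 controls shaded. All sections of mice 1 and 4 lie above all sections of mice 2 and 3, whether rich or poor.

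The mouse 1 atrial library differed from all others in many more genes than the mouse 4 rich libraries did. Of 2834 genes with at least 20 counts there, 42 (1.48%) were at least 2-fold above each of the other 19 libraries on CPM + 1. The same count was 0 of 5104 in the mouse 4 atrial and 0 of 2939 in the mouse 4 left ventricular library, and 0 to 7 in each of the other 17, where the highest was the atrial section of control mouse 1. This way of counting, and the genes named from it, were chosen after the values were seen.

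Among these 42 genes were the 3 rule genes and 5 of the 19 atrial list genes in the table: Nppa, Sbk2, Mybphl, Hamp and Stard10. The share over all 2834 genes counted was 1.48%. The 5 are a description and no support, because a gene can pass the minimum of 20 counts through its high level in this library. Nppa exceeded the next library 37.2-fold. Mlana, a protein of pigment granules, was at 68.0 CPM, from 57 counts, against at most 2.26 CPM elsewhere. Other genes of pigment cells were not raised with it: Pmel and Tyrp1 had no count in this library and Dct was at 1.19 CPM. Gm13054, annotated in GENCODE M21 as antisense to and overlapping Nppa, was at 62.1 CPM. The use of strand in counting is not given in the sources used here, so its reads and those of Nppa cannot be told apart.

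Myl1, the essential light chain of fast skeletal muscle, which embryonic muscle also uses, was at 630 CPM in the mouse 1 atrial library. It was at 123 and 106 CPM in the mouse 4 rich libraries, against 81.0 to 185 CPM in the poor ones. Of 14 skeletal muscle genes, 11 were in the table and 3 passed the minimum, and the list summed to 923, 182 and 290 CPM in the rich libraries and to 172 to 379 CPM in the poor ones. Also among the 42 were Gpx3, a secreted glutathione peroxidase, at 852 CPM, Fabp5, a fatty acid binding protein, at 195 CPM, Igf1, a growth factor, at 70.4 CPM, and the ribosomal and translation genes Rps12 at 825 CPM and Eef1a1 at 1258 CPM.

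Each of these genes was then described by its share of the excess, beside the rule genes. The share is a library's level above the poor median, as a percentage of the same excess in the mouse 1 atrial library. Intervals are exact 95% Poisson intervals of the count in the library, for counting error only. They leave out error in the poor median and in the mouse 1 atrial level. In the mouse 4 atrial library the share was 10.4% for Myl7, 7.75% for Myl4 and 6.49% for Sln, and in the mouse 4 left ventricular library 5.70%, 5.69% and 2.97%. These ranges, 6.49% to 10.4% and 2.97% to 5.70%, are given beside the other genes as a description. No test is made of them: the values of the rule genes chose the libraries, and being at least 2-fold above every other library limits a gene's share beforehand.

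Mybphl had a share of 11.9% (8.61 to 16.02) in the mouse 4 atrial and 7.33% (3.66 to 13.1) in the mouse 4 left ventricular library. Fgf12 had 9.82% (6.52 to 14.2) and 7.60% (3.48 to 14.4), and Stard10 had 9.45% (4.52 to 16.03) and 10.5% (2.99 to 22.0). All 3 genes overlapped the range of the rule genes in both libraries. Hamp was above it in both, at 22.4% (15.3 to 31.7) and 13.5% (5.84 to 26.6).

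Nppa was below the range in both libraries, at 0.16% (0.08 to 0.25) in the mouse 4 atrial and 1.93% (1.72 to 2.16) in the mouse 4 left ventricular library. Myl1 was also below in both, at -0.23% (-3.09 to 2.90) and -3.62% (-7.64 to 1.08), and Mlana in the atrial library, at 2.07% (0.43 to 6.04). Over the 39 genes of that set other than the rule genes, 10 lay below, 26 overlapped and 3 lay above in the mouse 4 atrial library. In the mouse 4 left ventricular library, 2 lay below, 33 overlapped and 4 lay above. Many of the overlaps come from wide intervals, since these genes had few counts in mouse 4. The tally is a description, and no conclusion is drawn from it.

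**Figure D4:**
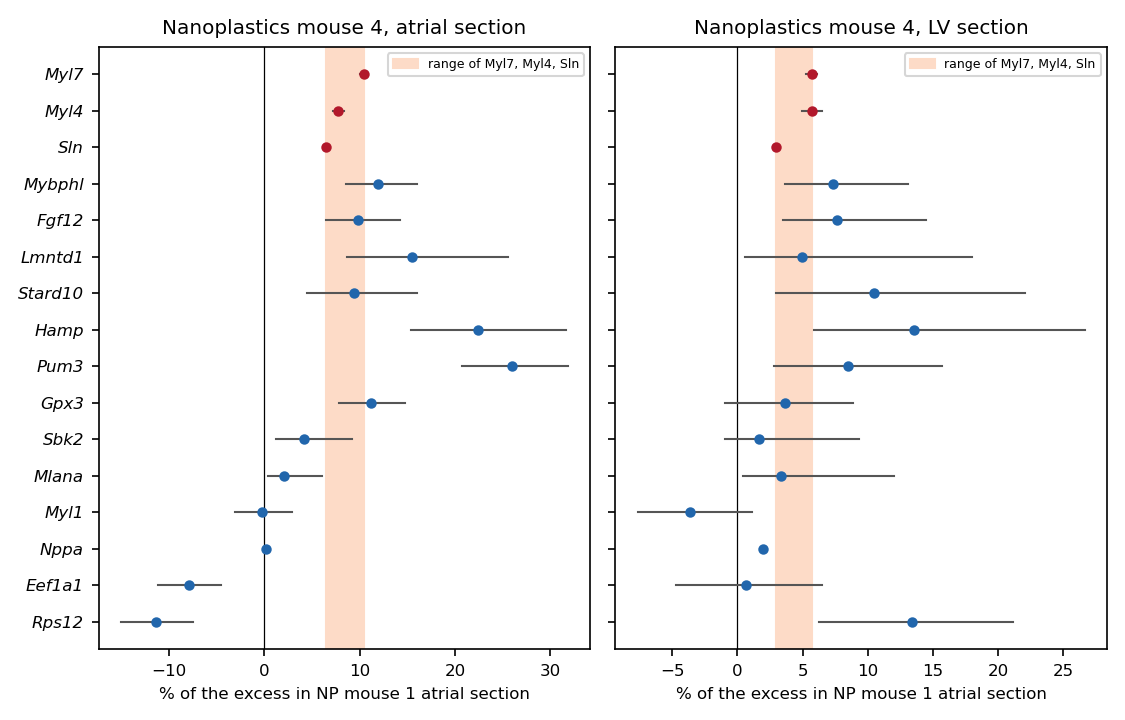
Share of the excess in the mouse 1 atrial library that is found in the mouse 4 atrial section (left) and left ventricular section (right), in percent, for 16 genes, with exact 95% Poisson intervals as lines and the range of Myl7, Myl4 and Sln shaded. Mybphl and Fgf12 overlap the shaded range, Nppa and Myl1 lie below it, and Hamp lies above it.

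Fibroblast and mesothelial transcripts were highest in the mouse 1 atrial library, while the mouse 4 rich libraries lay in or near the poor range. Fibroblast genes summed to 4365 CPM in the mouse 1 atrial, 1999 CPM in the mouse 4 atrial and 2180 CPM in the mouse 4 left ventricular library. The poor libraries held 1685 to 3323 CPM. Of 15 fibroblast genes, 12 passed the minimum and none separated the classes, against 0.877% above and 0.397% below over all 4788 genes. Mgp, an inhibitor of calcification made by fibroblasts, was at 1332, 308 and 591 CPM, against 191 to 736 CPM. Mesothelial genes summed to 103, 42.2 and 28.2 CPM, against 15.3 to 39.0 CPM, with Upk3b at 19.1 CPM in the mouse 1 atrial library. The part of these cells in the result for the mouse 1 atrial library was not tested.

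Airway transcripts were present in all sections of mouse 4. Scgb1a1, the secretoglobin of club cells, had 142 and 62 counts in the rich libraries of mouse 4 (66.6 and 70.0 CPM) and 23 counts in its poor right ventricular library (50.5 CPM). It was lower in the right and left ventricular sections of mouse 3, at 10.6 and 6.27 CPM, and had 4 counts in the mouse 1 atrial library and 2 counts over the 9 controls. Bpifa1, another airway secretory protein, had 111, 31 and 20 counts in the same mouse 4 libraries and none in the mouse 1 atrial library. Of 9 lung genes, 4 were in the table, and these summed to 4.77, 74.5 and 74.6 CPM in the rich libraries and to 0 to 57.1 CPM in the poor ones. These genes went with the mouse across rich and poor libraries, and their part in the counts of higher genes was not tested. Without the 3 mouse 4 libraries, a single rich library remains, and 166 genes lie above and 271 below all the poor ones by the same rule, with 10 of the 11 genes among the 166.

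Over the 22 lists other than the atrial one, which cover muscle, metabolism, transcription factors, stress and other cell types, no gene was higher or lower by the rule. Over all 4788 genes the rule counted 0.23% as higher and 0% as lower, so an absence in these lists tells little about them. No lymphocyte gene passed the minimum of mean counts. The smooth muscle gene Smtn lay above without overlap but differed by only 0.68. Pacemaker and conduction genes were too scarce to compare, with none of 12 passing the minimum and sums of 14.3, 21.1 and 21.5 CPM in the rich libraries, against 6.66 to 19.97 CPM in the poor ones.

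The control hearts, which played no part in choosing the libraries, allow a test of section. The 3 control atrial sections were compared with the mean of both ventricular sections of the same mice, with the mouse as a block, by edgeR's quasi-likelihood test. The control atrial sections had little atrial muscle RNA: Myl7, Myl4 and Sln summed to 19.9, 297 and 52.9 CPM of the library total in control mice 1, 2 and 3, against 4.51 to 41.1 CPM in the ventricular sections. Myl2 was at 6938, 9041 and 9314 CPM in the control atrial and 6737 to 8905 CPM in the control ventricular sections. Ventricular light chain RNA was thus as abundant in the control atrial as in the ventricular sections, and all controls lay below the threshold for rich.

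In the controls, 35 of 6979 genes rose in the atrial section (0.502%) and 4 fell (0.0573%) at an adjusted p under 0.05. This count depended on control mouse 2: without it, 1 gene rose and 1 fell. Without control mouse 1, 5 rose and none fell. It also depended on the block: with no replicate block, none of 6502 genes passed, with 505 at an unadjusted p under 0.05, and DESeq2's Wald test called 2. The 3 sections of a mouse come from 1 animal, which is why the block was used.

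Of the rule genes, Myl4 rose in the control atrial section. Its levels were 1.69, 48.4 and 9.49 CPM in control mice 1, 2 and 3, against 1.37 to 3.29 CPM in the ventricular sections, a log2 change of 3.197 (SE 0.55, edgeR adjusted p = 0.024), and it had no call against either ventricular section alone (adjusted p = 0.071 and 0.14). Myl7 and Sln had similar log2 changes, 3.12 (SE 0.74) and 3.79 (SE 0.76), and did not pass (edgeR adjusted p = 0.24 and 0.18). Without control mouse 3, both passed (edgeR adjusted p = 7.0e-12 and 1.2e-23).

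None of the 8 other genes higher in the rich libraries was called in the controls. Mybphl and Fgf12 were too low to test, with 3 and 6 counts over the 9 controls. The 6 tested genes had edgeR adjusted p-values of 0.319 or more. Over all 6979 genes tested only 0.502% rose and 0.0573% fell, so an absence among 6 genes is near the background. Acot7 had the largest log2 change among them, 0.47 (SE 0.20), and Pum3 had -0.24 (SE 0.20). The 3 Mybphl counts lay in the control atrial sections of mice 2 and 3, at 1.70 and 0.678 CPM, and none in the 6 ventricular sections, and so few counts allow no test. Nppa was at 170, 291 and 267 CPM in the control atrial sections, against 37.4 to 256 CPM in the ventricular ones (log2 change 0.78, SE 0.57, edgeR adjusted p = 0.69). Of the 7 atrial list genes tested, none was called, which is also near that background. Their median log2 change was 0.41, against 0.01 over all genes tested.

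Fibroblast genes were among those that rose in the control atrial section. Of 14 fibroblast genes tested, 5 rose and none fell, against 0.502% and 0.0573% of all genes tested. The median log2 change was 0.39 over the list and 0.01 over all genes. Mgp rose, with 553, 350 and 244 CPM in the atrial sections, against 147 to 259 CPM in the ventricular ones (log2 change 1.02, SE 0.14, edgeR adjusted p = 0.0013), and Gsn, an actin-severing protein, rose by 0.52 (SE 0.12, adjusted p = 0.023). Mgp was called in 8 of 10 alternatives and Gsn in 5 of 10. The smallest adjusted p was that of Ecrg4, a secreted peptide precursor, at 22.8, 21.2 and 6.10 CPM in the atrial and 0 to 1.88 CPM in the ventricular sections (log2 change 5.13, SE 0.51, edgeR adjusted p = 3.9e-10). In the rich nanoplastics libraries Ecrg4 was at 14.3, 2.81 and 22.6 CPM, and it reached 32.5 CPM in the poor atrial section of mouse 2.

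Some muscle genes other than Myl4 also rose in the control atrial section. Myh6, the adult mouse heart myosin heavy chain, rose by 0.50 (SE 0.10, edgeR adjusted p = 0.0088), and Myh7, the slow heavy chain, rose by 0.72 (SE 0.16, adjusted p = 0.024). Of 22 sarcomere genes tested, 2 rose, Myh6 and Ttn, and of 9 ventricular genes only Myh7, against 0.502% of all genes tested. Among 18 calcium handling genes only Ryr2 rose, by 0.49 (SE 0.12, adjusted p = 0.049), and among 8 smooth muscle genes only Mustn1, by 1.01 (SE 0.26, adjusted p = 0.049). These calls were often lost under the alternatives that tested them: Myh6 was called in 6 of 10, Ttn in 5 of 10, Myh7 in 3 of 9, Ryr2 in 2 of 10 and Mustn1 in 1 of 9. In the rich nanoplastics libraries, Myh6 was at 1956, 3680 and 4155 CPM, against 1734 to 4981 CPM in the poor ones, and Myh7 at 115, 34.7 and 113 CPM, against 34.9 to 87.8 CPM. Neither gene separated the classes.

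Of the 35 genes that rose in the control atrial section, 26 passed the minimum of mean counts in the nanoplastics libraries. Of these, 1, Myl4, was higher in the rich libraries, against 0.23% of all 4788 genes. The median rich minus poor difference of the 26 was 0.35 on the log2 scale, positive in 23 of 26. It was 0.01 over all 4788 genes, of which 2496 were positive. The mouse 1 atrial library was the highest of the 11 for 13 of the 26, against 819 of all 4788. These figures are a description and no support. Myl4, whose values chose the libraries, is among the 26, and a gene can pass the minimum through a rich library alone. Ltbp4, a matrix protein that binds latent TGF-beta, had the largest difference after Myl4, 1.40, with 63.3, 10.3 and 26.0 CPM in the rich libraries and 4.33 to 37.7 CPM in the poor ones. The 4 genes that fell, mt-Tm, Atpaf1, mt-Co1 and Bnip3, all overlapped between rich and poor libraries. Over all 4788 genes only 0.877% lay above and 0.397% below without overlap, so this tells little about the 4.

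**Figure D5:**
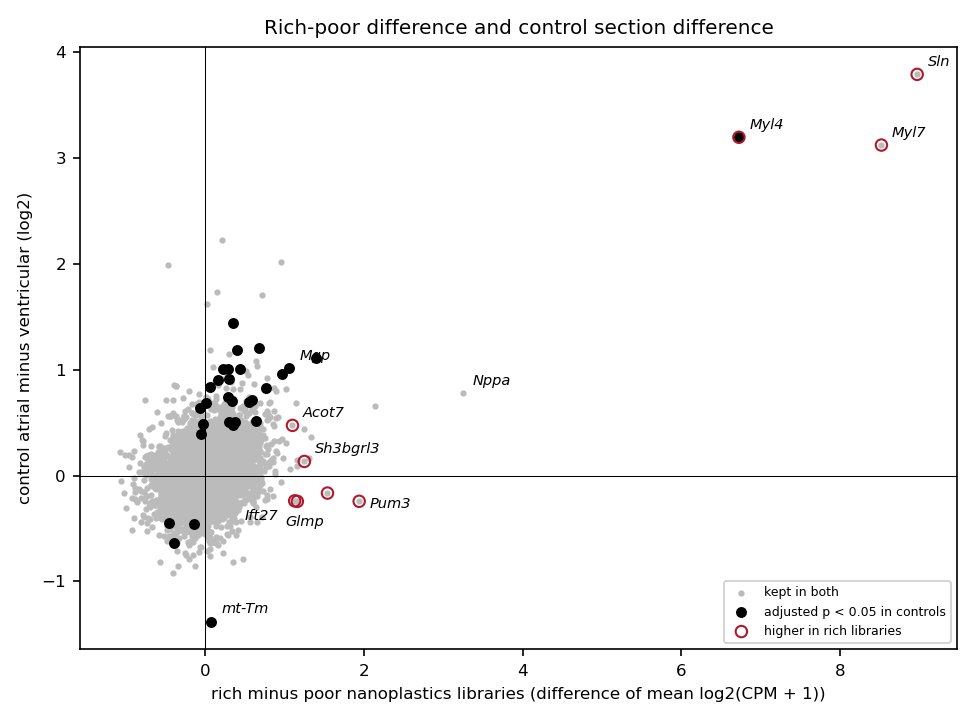
Log2 change of control atrial minus ventricular sections (vertical) against the rich minus poor difference of mean log2(CPM + 1) in nanoplastics libraries (horizontal), each point a gene measured in both. The rule genes lie far to the upper right, and the genes circled for being higher in the rich libraries, Myl4 aside, are not among the black points called in the controls.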

How the data were processed

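Bulk RNA libraries came from heart sections of nanoplastics and control mice. The authors deposited raw counts per gene for 21 libraries and 20960 genes. Libraries were made with the Singleron AccuraCode kit, in which a well barcode is added to captured polyA RNA by template switching, per the labels' protocols. STAR appears, with no version, in the submitters' processing notes. Which build, annotation, counter, strand setting and identifiers were used is not given in the sources used here, so intervals and floors (3 counts) cover counting error only. None of the 210 pairs of libraries held identical values.

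Rich and poor libraries were set by the raw CPM of Myl7, Myl4 and Sln. Other levels are CPM scaled by TMM over 20 libraries. Rich and poor libraries were compared by overlap and by the difference of mean log2(CPM + 1), with no test, at a mean of at least 10 counts. Control sections were tested with edgeR 4.0.16 in R 4.3.3 (filterByExpr, TMM, robust quasi-likelihood fit, mouse as block, Benjamini-Hochberg adjustment, threshold 0.05). Deviations from section means correlated at 0.284 to 0.518 between sections of 1 control mouse, and at -0.402 to 0.148 between mice. Alternatives used limma 3.58.1, which edgeR needs, and DESeq2 1.42.0. The procedures were tested on simulated data.

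The members, the 23 gene lists and the rules were chosen with earlier results of these data known. Genes were named by size of the rich minus poor difference, by membership of the atrial list and, from the other lists, by calls in the controls, and other named genes were chosen after their values were seen. Of the genes counted as higher in the rich libraries, 1 is not reported here by name. GENCODE M21 gave lengths for 20504 genes, and promoters are from RefSeq. Separate animals gave the control replicates, while the rich libraries come from 2 mice.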

Additional observations from a re-analysis of the deposited data

Results flagged for a closer look

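In a group of 4 libraries, a library was singled out when its gap to the nearest other took up more of the whole range than Dixon's 95% critical value allows, which chance gives in about 1 in 20 groups. The genes of the atrial list were looked at, with Myl7, Myl4 and Sln left out because their values chose the libraries. Of 37 groups of values, 12 had such a library, and in all 12 it was the highest. The libraries rich in atrial muscle were chosen on the levels of related genes, so the chance rate does not apply to them as it stands. It also does not apply where the other libraries of a group had no count. There any count makes a library stand apart, and only as the highest. This was so for Mybphl, Hamp, Bmp10, Nr2f1 and Sbk3 in the left ventricular sections.

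Among the 4 nanoplastics atrial sections, that of mouse 1 stood apart for Nppa (25020 CPM), Mybphl (169.5 CPM), Stard10 (91.91 CPM), Sbk2 (77.59 CPM), Sbk3 (20.29 CPM) and Gja5 (4.775 CPM, a gap junction gene). The Gja5 level rests on 4 counts.

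Among the 4 nanoplastics left ventricular sections, that of mouse 4 stood apart for Nppa (672.1 CPM), Mybphl (12.43 CPM) and Hamp (9.037 CPM). In the same group, the mouse 3 library stood apart for Bmp10 (0.8963 CPM) and Nr2f1 (2.689 CPM) and the mouse 1 library for Sbk3 (0.7336 CPM). All rest on very few counts, and Bmp10 had 1 count over all the poor libraries.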

How the results depend on the processing

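The count of 11 genes higher in the rich libraries became 70 with no minimum of mean counts, 4 at a mean of at least 50, 42 with no minimum size and 166 without the 3 mouse 4 libraries, a setting chosen after seeing the data, like scaling over the 11 libraries alone, which kept all 11 genes. Leaving out each of the 11 libraries gave 10 to 17. The count of 0 genes lower became 10, 19 and 271 with no minimum of counts, no minimum size and no mouse 4 libraries, and 0 to 17 with a library left out. The 9 graded genes became 22 with no minimum of counts, 4 at a mean of 50, 15 with no minimum size and 166 without mouse 4, and 8 to 17 with a library left out. Myl7, Myl4, Sln and Pum3 stayed higher under all 19 alternatives, and Mybphl under 17.

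In the controls, 39 genes (35 up, 4 down) became 81 (79, 2) with library totals alone, which move the median of all genes to 0.11 (log2), 2 (2, 0) with DESeq2's Wald test, 85 (66, 19) with no filter, 22 (17 up) against the left and 8 (7, 1) against the right ventricular section alone. With no replicate block, which leaves out the pairing by mouse, the count was 0 (0, 0). Leaving out a mouse gave 2 to 51 genes (1 to 47 up, 0 to 4 down). In 2 tests of genes with no call, the sign turned near 0: with a mouse left out, Sh3bgrl3 ranged over -0.0094 to 0.35 and Kcnk3 over -0.057 to 0.71. The causes were not tested. Depth limits low genes: 1 count is worth 0.410 to 2.42 CPM in the 20 libraries.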

Other observations

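A few other genes outside the lists were also high in the mouse 1 atrial library. Inmt, a methyltransferase of small amines, was at 129 CPM there, against at most 56.6 CPM in the poor libraries, and H19, an imprinted noncoding RNA, was at 32.2 CPM against at most 10.98 CPM. Neither was high in the mouse 4 rich libraries, with Inmt at 39.9 and 26.0 CPM and H19 at 1.41 and 2.26 CPM.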
